A study of Mus musculus with 11 samples.

Results

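The expression of 10 genes tied to the endothelial response to blood flow, or related to its transcription factors, was followed across the cell types of the aged mouse lung: 8 Kruppel-like transcription factors (Klf2, Klf3, Klf4, Klf6, Klf7, Klf9, Klf10 and Klf13), the endothelial nitric oxide synthase gene Nos3 and the thrombomodulin gene Thbd. Each was taken as the matrix row that carries its symbol, which gave 10 of 31053 genes. The rule is by symbol and uses no measured value, but the 10 genes were chosen with earlier results of these data known. Single cells of dissociated whole lung had been profiled by droplet-based 3′ RNA sequencing in 11 libraries. The WT group was wild type (+/+), with 1 library at 18 months. The p21Het group was heterozygous for p21, the gene Cdkn1a (+/-), with 3 libraries, 1 at 19 and 2 at 18 months. The p21mTert group (+/mTert) carried an mTert allele of p21, mTert being mouse telomerase reverse transcriptase, with 5 libraries, 1 at 20 and 4 at 18 months. The p21mTertCD group (+/mTertCD) had 2 libraries at 18 months, and the labels do not spell out CD. Every group but WT thus has a single normal p21 allele, and the titles give 18 months for all mice, unlike the age labels. The series title speaks of mTert induction in p21-positive cells, and no measurement here tests in which cells the allele is expressed.

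Kruppel-like factors are zinc-finger proteins that bind GC-rich DNA and CACCC boxes. In endothelium, laminar blood flow is sensed at the cell surface and signals through the kinases MEKK3 and ERK5 to MEF2 factors, which switch on Klf2 and Klf4. These 2 factors in turn raise Nos3, which makes the vasodilator nitric oxide, and Thbd, a surface receptor that turns thrombin towards anticoagulant protein C activation, and they restrain adhesion molecules of inflammation. In the lung the same genes are studied in the capillary bed, which is built of general capillary cells (gCap) and the large aerocytes of the gas-exchange surface (aCap).

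Of 81983 deposited barcodes, 69266 passed the filter of 1000 to 30000 UMIs (unique molecular identifiers, each a counted transcript) and at most 14% mitochondrial UMIs. Libraries held 42038434 to 85988955 UMIs, and a passing cell had a median of 4133 to 6454. Marker genes placed 84.3% to 91.3% of passing cells of a library in a cell type, and none of the 10 genes was a marker. Each library held 293 to 1088 endothelial cells. The gate used the following genes among its markers, so their levels describe the cell types and are no check of them. Gpihbp1 stood at 1505 CPM (UMIs per 1000000 UMIs of that cell type in that library) in gCap and Car4 at 2786 CPM in aCap. Slc6a2 stood at 1914 CPM in venous cells and Prox1 at 809 CPM in lymphatic cells. Cells with arterial markers held 270 CPM of Gja5 and 304 CPM of Bmx, against 20.3 and 18.4 CPM in gCap. Vegfc (127 against 61.7 CPM) and Dkk2 (40.8 CPM against no UMI) were also higher there, but Sox17 (171 against 316 CPM) and Hey1 (93.6 against 170.4 CPM) were lower. The sum of the arterial list was 1006 CPM in these cells and 587 in gCap. Within these cells it was exceeded by the summed venous markers (2620 CPM, of which Vwf gave 2525 and Slc6a2 1.6), lymphatic markers (2399 CPM) and gCap markers (1368 CPM), so they are called arterial-marker cells here. The pan-immune genes Ptprc, Coro1a, Laptm5 and Cd52 summed to 201 CPM in gCap, 300 in aCap and 105 in venous cells, against 4719 in immune cells. Cdkn1a lay between 114 and 187 CPM in all groups, and Tert at 1.18 CPM in WT and 0.565 to 0.929 in p21Het. It was higher in both groups with a Tert allele at p21: 2.06 to 3.21 CPM in p21mTert and 1.91 to 2.63 CPM in p21mTertCD. No library pair shared more than 83 cell barcodes.

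The stretch just upstream of Klf2 and of Klf4 is shown because these 2 factors head the flow programme and their levels are followed throughout. RefSeq windows (GRCm38.p6) were at hand for 7 of the 10 genes, and the 250 bases before each start were searched on both strands. Capitals mark CACCC boxes, read as GGGTG where they lie on the other strand, and matches to the MEF2 consensus. The Klf2 window lies at chr8:72318812-72319061 on the plus strand and the Klf4 window at chr4:55532476-55532725 on the minus strand, both written in the direction of transcription. Starts are those of RefSeq. The GENCODE annotation puts the Klf2 start at 72319033, so by it the end of the Klf2 window, with its CACCC box, lies within the gene.
Klf2: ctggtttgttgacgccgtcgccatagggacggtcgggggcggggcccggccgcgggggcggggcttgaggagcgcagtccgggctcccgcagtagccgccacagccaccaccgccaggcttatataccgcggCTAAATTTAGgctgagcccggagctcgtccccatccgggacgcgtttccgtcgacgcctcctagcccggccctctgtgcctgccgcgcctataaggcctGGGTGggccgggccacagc
Klf4: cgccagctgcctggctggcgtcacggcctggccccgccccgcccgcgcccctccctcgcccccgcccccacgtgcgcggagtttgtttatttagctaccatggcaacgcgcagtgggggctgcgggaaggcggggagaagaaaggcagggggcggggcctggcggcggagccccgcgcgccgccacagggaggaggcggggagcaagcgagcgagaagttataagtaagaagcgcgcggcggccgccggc
The Klf2 window held 1 match to the MEF2 consensus, 108 bases from the start, which 0.518% of 27018 promoter windows held. It also held 1 CACCC box on the opposite strand, 14 bases from the start, a sequence present in 51.3% of windows. The Klf4 window held neither of these. GGGCGG occurred 4 times in the Klf4 window and 2 times in that of Klf2, and at least 1 copy was present in 32.9% of windows. GC content was 71.2% for Klf2 and 74.0% for Klf4, against a median of 52.0% over all windows. These are matches of letters in this window and not measured binding.

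The 10 genes divided the lung's cell types in different ways (levels are means of the libraries with at least 20 cells of the type). Klf2 was highest in vessels: 4527 ± 121 CPM (SD, n = 2) in arterial-marker cells, 4152 ± 816 (SD, n = 8) in lymphatic, 3211 ± 1119 (SD, n = 10) in venous, 2171 ± 651 (SD, n = 11) in gCap and 1852 ± 395 (SD, n = 10) in aCap. Nonclassical monocytes (1597 CPM), neutrophils (1478 CPM) and B cells (1341 CPM) followed, and AT2 cells (195 CPM) and erythroid cells (54.0 CPM) stood near the bottom. CPM is a share of a type's UMIs, and each type's own markers summed to 828530 CPM in erythroid and 186510 CPM in AT2 cells. This lowers the CPM of all other genes there. Along the Klf2 order of 25 cell types the ranges of neighbours overlapped in all but 1 of 24 neighbouring pairs. Within the same libraries some steps held throughout, as lymphatic over venous cells (7 of 7) and venous cells over gCap (10 of 10). Others did not, as arterial-marker over lymphatic cells (1 of 2) and neutrophils over B cells (6 of 11). Klf4 also led in vessels, from 2642 CPM in arterial-marker cells to 1381 CPM in gCap, and mesothelial cells (1270 CPM) came next. Unlike Klf2, it was low in neutrophils (40.7 CPM). In classical monocytes it stood at 653 CPM, close to Klf2 there (695 CPM).

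Nos3 and Thbd, the effector genes, were narrower. Nos3 stood at 119 ± 9.11 CPM (SD, n = 2) in arterial-marker cells, 112 ± 19.7 (SD, n = 10) in venous cells and 44.5 ± 9.13 (SD, n = 11) in gCap. It fell to 15.1 ± 7.71 CPM (SD, n = 8) in lymphatic cells, and its level was at most 4.95 CPM in any other cell type. No Nos3 UMI was found in AT1 or mural cells, where 3 counts would have been 1.96 and 3.23 CPM. Venous cells and gCap did not overlap in Nos3, nor did gCap and lymphatic cells. Thbd stood at 1671 ± 220 CPM (SD, n = 10) in aCap, 1517 ± 148 (SD, n = 11) in gCap and 1488 ± 257 (SD, n = 10) in venous cells. It was far lower in lymphatic cells (366 ± 153 CPM, SD, n = 8), fibroblasts (277 CPM) and arterial-marker cells (272 CPM). The top 3 Thbd ranges overlapped, and the step from venous to lymphatic cells did not.

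The other factors had leaders of their own. Klf7, known from neuronal growth, was highest in aCap (1035 ± 128 CPM, SD, n = 10) and did not overlap there with gCap, the next type (658 ± 109 CPM, SD, n = 11). Klf9, a stress hormone-responsive factor, was highest in fibroblasts (631 CPM) and venous cells (597 CPM) and lowest among vessels in aCap (253 CPM). Klf3, a repressor that works through CtBP, led in neutrophils (746 CPM) and nonclassical monocytes (543 CPM), followed by venous cells (448 CPM) and gCap (434 CPM). Klf13, which acts in lymphocyte gene control, led in nonclassical (737 CPM) and classical monocytes (620 CPM), and aCap was the next type (446 CPM). Klf6, an injury-responsive factor, was spread across ciliated (872 CPM), lymphatic (833 CPM), arterial-marker (814 CPM) and mesothelial cells (797 CPM). Klf10, a factor induced by TGF-beta, was low everywhere, with 158.5 CPM in nonclassical monocytes at the top and 81.4 CPM in gCap.

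**Figure D1:**
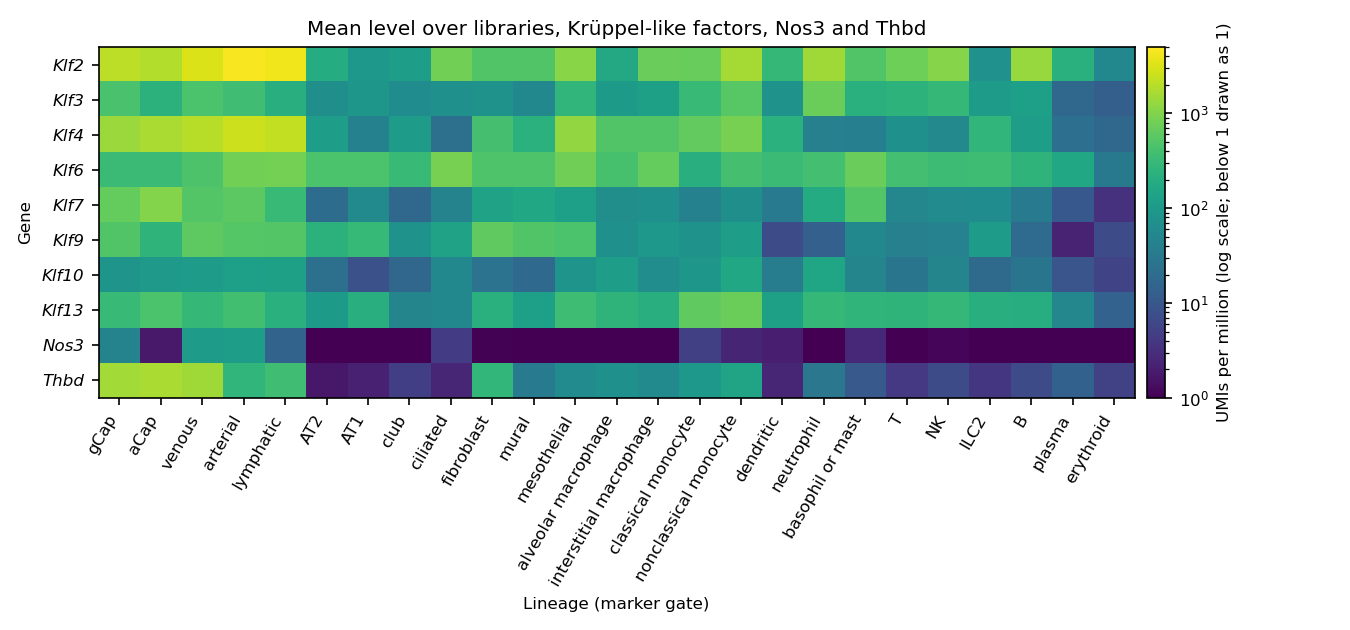
Heat map of the mean level of each of the 10 genes (rows; CPM on a log colour scale, values below 1 drawn as 1) in 25 gated cell types (columns). Klf2, Klf4, Nos3 and Thbd are highest in vessel types, while Klf3 and Klf13 peak in myeloid cells and Klf6 is broad.

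The share of positive cells rises with depth, so shares were read after thinning each cell to 1000 UMIs. Free RNA in droplets can also place single UMIs in cells that do not make a gene. Thinning does not remove it, and no correction for it was made. Nos3 was detected in 4.52% ± 0.747 (SD, n = 11) of gCap and 9.28% ± 3.08 (SD, n = 10) of venous cells, against 0.129% of erythroid and 0.100% of T cells. In aCap it was found in 0 of 845 thinned cells. This allows up to 0.355% of cells with a UMI at that depth and sets no limit on the share of cells that express the gene. Without thinning, 0.894% of aCap had a UMI. Median depths were 3329 UMIs in gCap, 4282 in aCap, 5247 in venous, 3588 in erythroid and 6025 in T cells, and without thinning Nos3 shares were 14.1% in gCap, 42.1% in venous, 0.238% in erythroid and 0.449% in T cells. Thbd was detected in 69.7% of thinned gCap, 72.7% of aCap and 70.6% of venous cells, against 22.8% of lymphatic and 0.584% of erythroid cells. Without thinning, these Thbd shares were 91.3%, 91.6%, 93.0%, 56.3% and 1.58%.

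The first comparison set all endothelial cells against the epithelial, mesenchymal and immune cells of the same libraries, with the library as a block. Endothelium held more of 9 genes than epithelium, and less Klf6. The step was widest for Thbd, at 1377 ± 130 CPM against 2.02 ± 1.03 (SD, n = 11 each), a log2 fold change of 8.97 ± 0.16 (SE). Nos3 followed with 4.54 ± 0.10, Klf7 with 4.19 ± 0.06, Klf4 with 3.84 ± 0.10 and Klf2 with 2.51 ± 0.08. Klf6 stood at 418 ± 80.5 CPM in endothelium and 548 ± 132 CPM in epithelium (SD, n = 11 each), log2 −0.75 ± 0.07, lower in endothelium in 11 of 11 libraries. All 10 genes passed an adjusted p of 0.05, but so did 83.5% of all genes tested, with 42.2% called higher and 41.4% lower.

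Against mesenchymal cells 8 of the 10 genes were higher in endothelium, and Klf9 and Klf6 were lower (10 called, beside 71.2% of all genes, with 35.9% higher and 35.3% lower). Nos3 differed by a log2 fold change of 5.99 ± 0.28, Thbd by 2.47 ± 0.09, Klf2 by 2.22 ± 0.10 and Klf4 by 2.06 ± 0.13. Klf9 stood at 485 ± 68.2 CPM in endothelium against 615 ± 67.2 CPM in mesenchyme (SD, n = 11 each), and was lower in endothelium in 11 of 11 libraries. Against immune cells 8 genes were higher, led by Nos3 (5.23 ± 0.13), Thbd (4.94 ± 0.14), Klf7 (3.06 ± 0.09) and Klf9 (3.00 ± 0.06), where 79.7% of all genes were called, 37.1% higher and 42.7% lower. Klf10 was among the 8 (0.22 ± 0.08), a call lost without p21mTert_3 (0.18, adjusted p = 0.054). Klf6 and Klf13 were called lower after TMM scaling (log2 −0.14 ± 0.06 and −0.24 ± 0.09), yet their plain CPM was higher in endothelium in 11 of 11 and 9 of 11 libraries. No direction is given for these 2 genes, since TMM shifted log2 fold changes against plain CPM in this comparison. The median shift was −0.38 over 47 genes here and −0.38 over 45 genes in the comparison with epithelium. These medians do not cover all genes tested.

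The capillary comparison asked how aerocytes differ from general capillary cells, using the 10 libraries with at least 20 cells of both (p21Het_3 held 11 aCap cells). Nos3 was nearly absent from aCap. Its levels there were 0 in WT_1, p21mTert_1, p21mTert_5 and p21mTertCD_1, and 1.25 to 5.61 CPM in the other 6 libraries, which rests on 9 UMIs in all. In the gCap of the same libraries Nos3 ranged from 30.1 to 55.9 CPM. The groups did not overlap, and the log2 fold change was −4.29 ± 0.28 (adjusted p = 1.4e-12), a 19.6-fold difference. Of the 10 genes, 8 were called, 4 higher and 4 lower in aCap, beside 45.5% of all genes tested (21.7% higher and 23.7% lower).

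Among the transcription factors, Klf7 was 1.60-fold higher in aCap (log2 0.68 ± 0.07, adjusted p = 3.1e-09) and Klf13 1.45-fold higher (0.53 ± 0.07, adjusted p = 1.1e-06), each in 10 of 10 libraries. Klf13 ranged from 406 to 492 CPM in aCap and from 250 to 357 CPM in gCap, so the 2 types did not overlap. Klf9 (log2 −0.92 ± 0.09) and Klf3 (−0.89 ± 0.08) were lower in aCap in 10 of 10 libraries. Klf9 ranged from 202 to 311 CPM in aCap and from 395 to 616 CPM in gCap. The flow pair Klf2 and Klf4 parted in opposite directions by small steps. Klf2 was lower in aCap in 8 of 10 libraries (log2 −0.23 ± 0.06, adjusted p = 0.0022) and Klf4 higher in 7 of 10 (0.27 ± 0.07, adjusted p = 0.0020). Without the library block the Klf2 call was lost (−0.25, adjusted p = 0.10), while that of Klf4 was kept. Their ranges overlapped widely: Klf2 ran from 1060 to 2366 CPM in aCap and from 1036 to 3386 CPM in gCap. Thbd was 1.11-fold higher in aCap (log2 0.15 ± 0.06, adjusted p = 0.037), a call that was lost in 11 of 20 alternatives. Klf6 (−0.05 ± 0.07) and Klf10 (0.23 ± 0.13) did not pass the test.

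**Figure D2:**
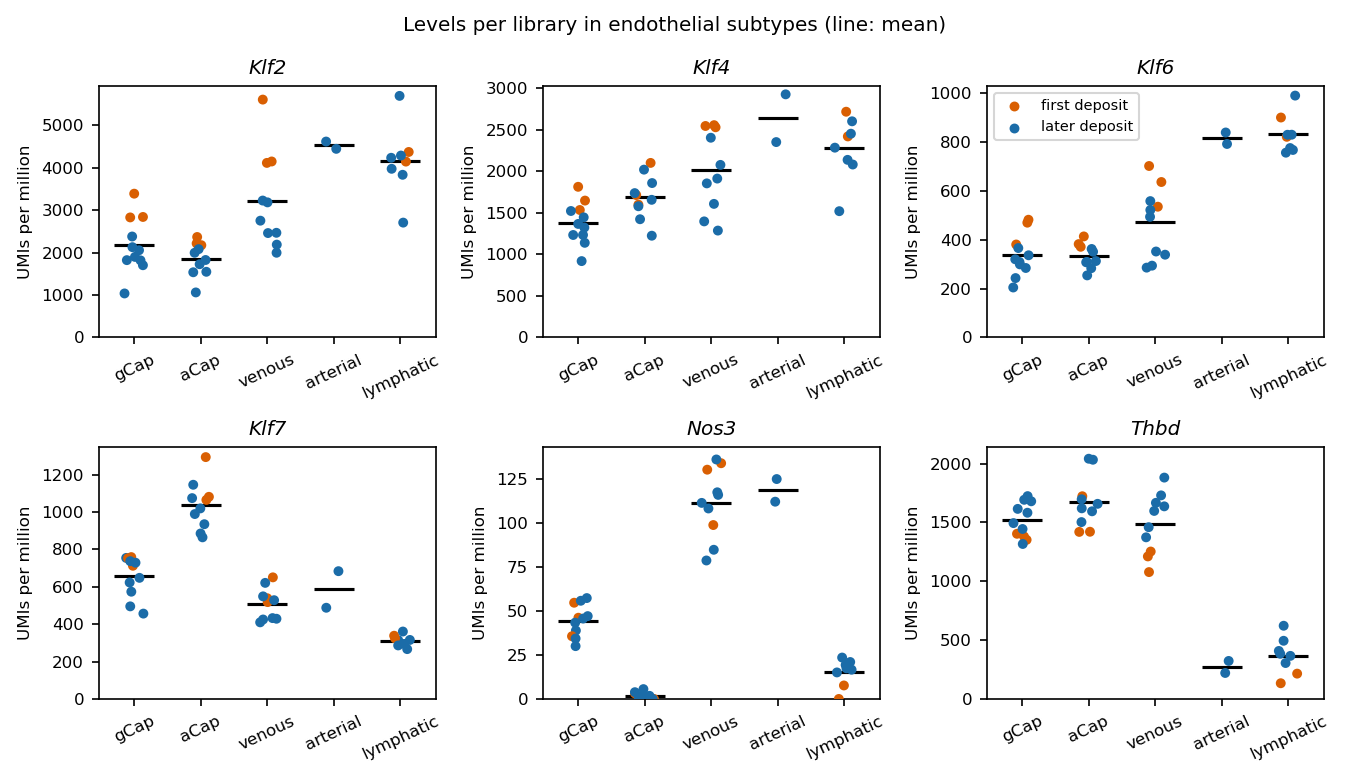
Level (CPM) of Klf2, Klf4, Klf6, Klf7, Nos3 and Thbd in each of 5 endothelial subtypes. Each point is a library with at least 20 cells (orange, first deposit; blue, later deposit) and each line a mean; Nos3 lies at 0 to 5.61 in aCap and 78.9 to 136 in venous cells.

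Venous cells were compared with gCap in 10 libraries (p21mTertCD_1 held 17 venous cells). Nos3 was 2.59-fold higher in venous cells (log2 1.38 ± 0.09, adjusted p = 1.5e-12). Library by library it ranged from 78.9 to 136 CPM in venous cells and from 34.4 to 57.4 CPM in gCap, without overlap. Klf2 rose from 2284 ± 560 to 3211 ± 1119 CPM (SD, n = 10 each), log2 0.57 ± 0.07, and Klf4 from 1427 ± 209 to 2019 ± 484 CPM (SD, n = 10 each), log2 0.59 ± 0.08, each in 10 of 10 libraries. Klf6 (0.55 ± 0.09), Klf10 (0.45 ± 0.13) and Klf9 (0.34 ± 0.07) were also higher, the Klf10 call being lost in the later deposit alone (0.27, adjusted p = 0.074), and Klf7 was lower (−0.30 ± 0.07) in 10 of 10 libraries. Thus 7 of the 10 genes were called, 6 of them higher, beside 33.2% of all genes tested (17.1% higher and 16.1% lower). Thbd did not pass the test (0.07 ± 0.07), nor did Klf3 (0.11 ± 0.07) and Klf13 (0.02 ± 0.07).

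Arterial-marker cells reached 20 cells in p21mTert_3 (25 cells) and p21mTert_4 (24 cells) alone, so this comparison rests on 2 libraries. With so few libraries the test takes its spread largely from all genes together. Its p-values are thus not to be set beside those of the other comparisons. Thbd was low there, at 221 and 323 CPM, against 1679 and 1317 CPM in the gCap of the same libraries (log2 −2.36 ± 0.20, adjusted p = 2.8e-29). Nos3 stood at 125 and 112 CPM against 45.8 and 43.4 CPM (log2 1.53 ± 0.28). Klf2 stood at 4613 and 4442 CPM against 1816 and 2377 CPM (log2 1.25 ± 0.18). Klf6 (1.40 ± 0.18) and Klf4 (1.06 ± 0.18) were higher as well, which made 5 of 10 genes called, beside 19.9% of all genes (10.6% higher and 9.31% lower). With a minimum of 5 cells, a setting added after the data were seen, 10 libraries entered and 8 genes were called, beside 35.6% of all genes. There Thbd had a log2 fold change of −2.66 ± 0.13, Nos3 1.61 ± 0.17, Klf6 1.06 ± 0.12, Klf2 0.90 ± 0.11, Klf4 0.58 ± 0.11 and Klf10 0.57 ± 0.17. Klf3 (−0.43 ± 0.13) and Klf7 (−0.50 ± 0.12) were called lower in that setting.

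Lymphatic cells, whose vessels carry slow lymph, differed from gCap in 9 of the 10 genes over 8 libraries, 4 higher and 5 lower, beside 43.0% of all genes (20.0% higher and 23.0% lower). Klf2 was higher in 8 of 8 libraries (log2 0.94 ± 0.10), as were Klf4 (0.66 ± 0.09), Klf6 (1.23 ± 0.10) and Klf10 (0.50 ± 0.14). Both effectors were lower: Thbd ranged from 134 to 622 CPM against 1317 to 1679 CPM (log2 −2.14 ± 0.13, adjusted p = 1.8e-14), and Nos3 from 0 to 23.6 CPM against 30.1 to 55.9 CPM (log2 −1.48 ± 0.25, adjusted p = 1.4e-05). The lymphatic Nos3 values rest on 0 to 7 UMIs per library. Klf3 (−1.17 ± 0.11), Klf7 (−1.09 ± 0.10) and Klf13 (−0.60 ± 0.10) were lower in 8 of 8 libraries. Klf9 did not pass the test (0.00 ± 0.09).

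Set side by side, the factors and their 2 effector genes did not move as a unit between vessel types. Higher Klf2 and Klf4 went with higher Nos3 in venous and arterial-marker cells, and with lower Nos3 in lymphatic cells. These are levels summed over the cells of a type, and in lymphatic cells a higher share of Klf2-positive cells was not seen. Whether the genes part within single cells was not tested. Thbd was lower in the arterial-marker and lymphatic cells, the 2 types with the highest mean Klf2. All 4 comparisons share the same gCap libraries, so they are not independent of each other.

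**Figure D3:**
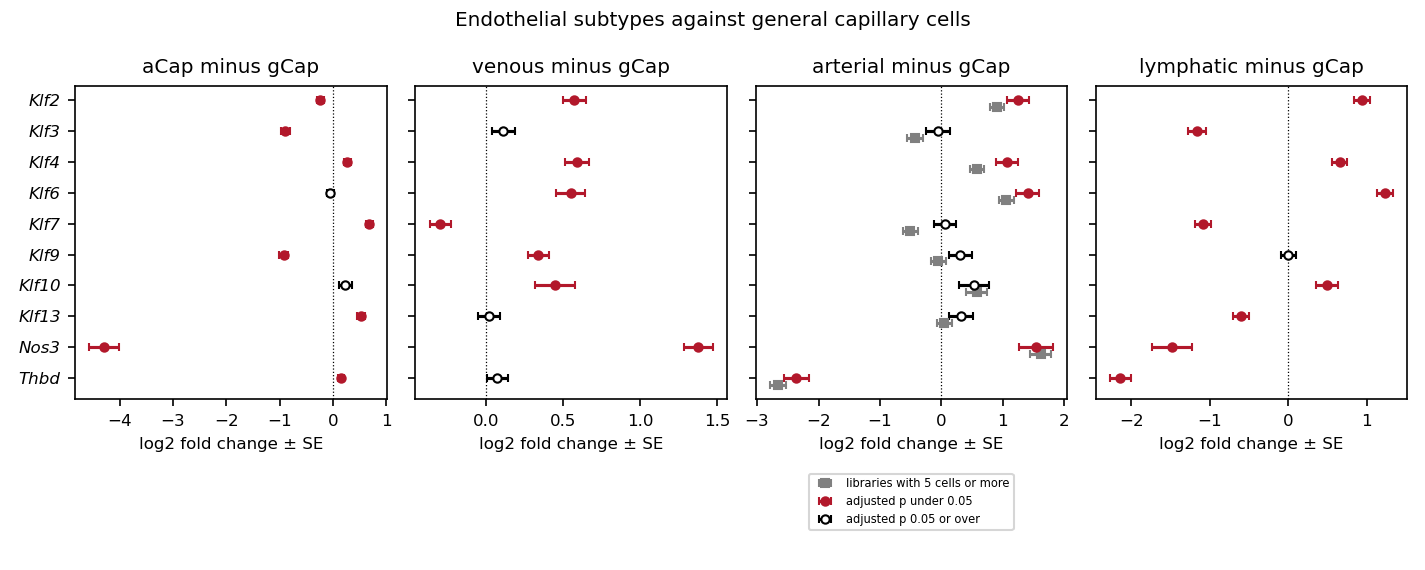
Log2 fold change of each of the 10 genes in aCap, venous, arterial-marker and lymphatic cells against gCap, with bars of 1 SE, where filled red points passed an adjusted p of 0.05 and grey squares are arterial-marker values with a minimum of 5 cells. Nos3 lies at −4.29 in aCap and 1.38 in venous cells, and Thbd at −2.36 and −2.14 in arterial-marker and lymphatic cells.

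Genes upstream of Klf2 and Klf4 were examined as a list of 12 (the MEKK3-ERK5-MEF2 kinases and factors, the CCM complex and the flow sensor Piezo1). The list was not split into genes that raise and genes that restrain the pathway. Its medians and counts are thus no measure of pathway activity. Over all genes tested against gCap the median log2 fold change was −0.02 in aCap, −0.03 in venous, −0.07 in arterial-marker and −0.08 in lymphatic cells, beside which the medians of this and the following lists are to be read. In aCap 4 of the 12 upstream genes were higher and 6 lower, with a median of −0.23. Heg1, the membrane anchor of the CCM complex, had a log2 fold change of −1.25 ± 0.07, Piezo1 −0.96 ± 0.12 and Map3k3, which encodes MEKK3, −0.57 ± 0.13, while Ccm2 was at 0.81 ± 0.16. In venous cells 3 were higher and 3 lower (median 0.02), with Heg1 at 0.97 ± 0.06 and Mef2c at 0.42 ± 0.08. In lymphatic cells 1 was higher and 4 were lower (median −0.28): Mef2c, a MEF2 factor, rose by 1.37 ± 0.10 and Heg1 stood at −3.11 ± 0.16. In arterial-marker cells 1 was higher (Heg1, 0.85 ± 0.18) and 3 were lower (median −0.13).

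Other genes known to respond to laminar flow, a list of 14, split in every vessel comparison. In aCap 5 of 12 tested were higher and 4 lower than in gCap (median −0.0043). The lipid phosphatase gene Plpp3 rose by 1.38 ± 0.07 and the protease inhibitor gene Timp3 by 1.09 ± 0.09. The gap junction gene Gja4 stood at 2.18 CPM in aCap and 213 CPM in gCap (log2 −5.89 ± 0.21), and the protease gene Adamts1 at 21.9 and 338 CPM (−4.64 ± 0.37). In venous cells (median 0.46) 7 of 13 were higher, Timp3 among them (1.58 ± 0.12), and 5 were lower, with Calcrl at −0.76 ± 0.07 and S1pr1 at −0.55 ± 0.06. In lymphatic cells 6 of 13 were higher and 7 lower (median −0.62), with Calcrl at −2.70 ± 0.12 and Cav1, the caveolin gene, at −2.15 ± 0.14. Arterial-marker cells had 4 of 12 higher and 3 lower (median 0.08).

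The inflammatory list holds 10 genes that were listed as lower under laminar flow. That label was not tested here and may not hold for every gene. In venous cells 5 of 8 tested were higher than in gCap and 2 lower, with a median log2 fold change of 2.13. The adhesion genes Selp (7.95 ± 0.16), Vcam1 (5.63 ± 0.16) and Icam1 (2.33 ± 0.14) led, and the endothelin gene Edn1 was lower (−1.02 ± 0.10). In arterial-marker cells 5 of 8 were higher and none lower (median 1.99), Selp among them (7.24 ± 0.30). In aCap 5 of 7 were lower, Edn1 among them (−5.55 ± 0.25), with a median of −3.28, and Icam1 was higher (1.63 ± 0.09). In lymphatic cells 3 of 8 were higher and 3 lower, with Edn1 at −6.06 ± 0.24 and a median of 0.28.

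Some Kruppel-like factors are themselves quickly induced, and 13 immediate-early genes, which also rise when tissue is dissociated, moved in the same subtype comparisons. In venous cells 12 of 13 were higher than in gCap and none lower, in arterial-marker cells 13 of 13 were higher, in lymphatic cells 8 were higher and 2 lower, and in aCap 11 were lower and none higher. The median log2 fold changes were 0.81, 1.87, 0.70 and −0.70 in that order. Their summed level had a median of 11157 CPM in gCap (range 5269 to 15992), 7389 in aCap (6388 to 8934), 23459 in venous (12783 to 30057), 20541 in lymphatic (13256 to 22543) and 32360 and 46119 in the 2 arterial-marker libraries. Fos was at 1.67 ± 0.14 in venous and 1.63 ± 0.10 in lymphatic cells, and Atf3 at −1.90 ± 0.11 in aCap. Of 6 heat-shock genes, 5 were higher in venous, 3 in arterial-marker and 3 in lymphatic cells, with none lower there, and in aCap 1 was higher and 1 lower (medians 1.69, 1.87, 0.74 and 0.09). Their summed level in aCap was nevertheless above that in gCap without overlap, with a median of 939 CPM (range 637 to 4274) against 287 (243 to 377). It had a median of 837 CPM in venous and 511 in lymphatic cells and was 1545 and 1743 CPM in the arterial-marker libraries. The part of these genes in the differences of the 10 genes was not tested.

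Of the 9 other Kruppel-like factor genes, 3 were high enough to test between vessel types. Klf11 (97.0 against 28.0 CPM, log2 1.71 ± 0.12) and Klf12 (43.3 against 17.3 CPM, 1.42 ± 0.16) were higher in aCap than in gCap, and none of the 3 was called in venous, arterial-marker or lymphatic cells. Klf5, an epithelial factor, stood at 133 CPM in epithelium and 1.35 CPM in endothelium (log2 −6.79 ± 0.13).

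Across the 25 cell types, the genes with the pattern most like each of 4 members were ranked by Pearson's r of log2(CPM + 1), as a description over types that share libraries and depth. Tmem88 (r = 0.829) and Irf1 (0.824) were most like Klf2, and Phf11d (0.879) and Arsa (0.872) most like Klf4. Myrip (0.935) and Fam107a (0.909) were most like Nos3, whose first 5 also held Ptprb (0.900) and Edn1 (0.900). Cdc42ep2 (0.922) and Stard9 (0.888) were most like Thbd. Among the 10 genes themselves the closest pairs were Klf3 with Klf13 (0.863), Klf3 with Klf10 (0.830) and Klf4 with Thbd (0.816), and Klf2 with Nos3 reached 0.674.

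The design's own question is whether the mTert and mTertCD alleles changed these genes. In gCap, Klf2 stood at 3386 CPM in WT, at 2837, 1821 and 1701 CPM in p21Het, at 2827, 2126, 1816, 2377 and 1897 CPM in p21mTert, and at 1036 and 2054 CPM in p21mTertCD. The replicated groups overlapped, with the lowest value in p21mTertCD_1, and WT lay above all other libraries. The highest values, 3386, 2837 and 2827 CPM, were those of the first deposit (WT_1, p21Het_1 and p21mTert_1). That deposit holds no p21mTertCD library. The log2 fold change was 0.10 ± 0.19 for p21mTert minus p21Het, 0.46 ± 0.22 for p21mTert minus p21mTertCD (adjusted p = 0.87) and −0.37 ± 0.23 for p21mTertCD minus p21Het. Klf4 in gCap ranged from 1140 to 1536 CPM in p21Het, from 1235 to 1815 CPM in p21mTert and from 920 to 1447 CPM in p21mTertCD, and was 1649 CPM in WT. Its log2 fold changes were 0.18 ± 0.14, 0.24 ± 0.16 and −0.05 ± 0.17 in the same order. These values move with single libraries: without p21mTertCD_1, p21mTert minus p21mTertCD was 0.12 for Klf2 and 0.017 for Klf4, and without p21mTertCD_2 it was 0.92 and 0.49. For p21mTertCD minus p21Het the Klf2 value was −0.019 without p21mTertCD_1 and −0.83 without p21mTertCD_2.

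Nos3 in gCap stood at 46.3 CPM in WT, at 54.8, 39.0 and 57.4 CPM in p21Het, at 35.7, 47.2, 45.8, 43.4 and 55.9 CPM in p21mTert, and at 30.1 and 34.4 CPM in p21mTertCD. Both p21mTertCD libraries lay below all 8 libraries of the other replicated groups, on 29 and 46 UMIs. The share of all genes with such an order was not counted, so the order is not read as an effect of p21mTertCD. The log2 fold change was −0.51 ± 0.22 against p21Het (unadjusted p = 0.038, adjusted p = 1.0) and p21mTert minus p21mTertCD was 0.45 ± 0.21 (unadjusted p = 0.046, adjusted p = 0.87), so neither was called. Thbd in gCap ranged from 1381 to 1723 CPM in p21Het, from 1317 to 1679 in p21mTert and from 1444 to 1692 in p21mTertCD, with log2 fold changes of −0.05 ± 0.15, −0.12 ± 0.17 and 0.07 ± 0.19. None of the 10 genes was called in gCap, where the contrasts called 0.0102%, 0.143% and 0.0615% of all genes tested in the order given for Klf2.

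**Figure D4:**
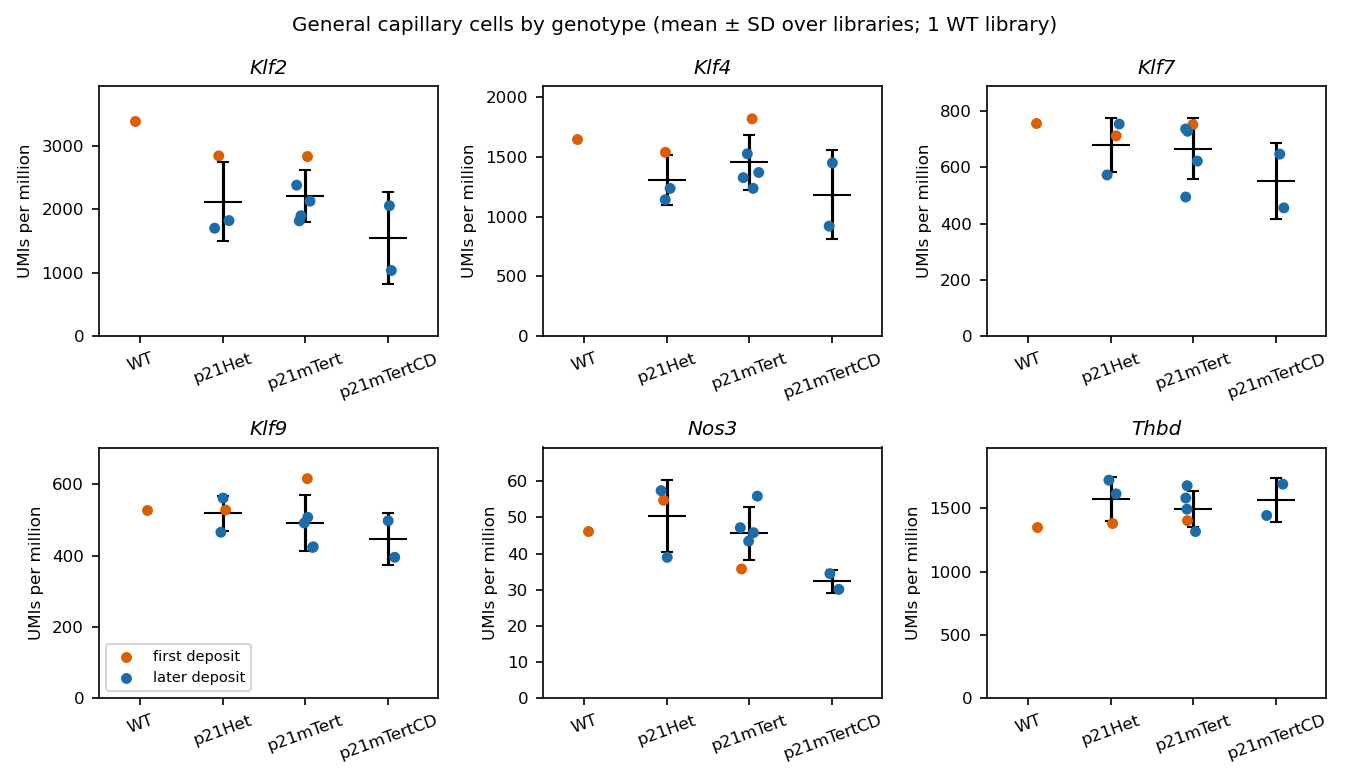
Level (CPM) of Klf2, Klf4, Klf7, Klf9, Nos3 and Thbd in gCap by genotype, with 1 point per library (orange, first deposit; blue, later deposit) and bars of the mean ± SD. The replicated groups overlap for Klf2 and Klf4, the WT library lies above all others for Klf2, and the 2 p21mTertCD libraries lie at 30.1 and 34.4 for Nos3.

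Over 9 cell types (all endothelium, gCap, aCap, AT2, fibroblasts, alveolar macrophages, classical monocytes, T and B cells), none of 252 tests of the 10 genes passed an adjusted p of 0.05 in edgeR's quasi-likelihood test, nor in DESeq2. Over all genes 0.0847% of tests passed it (0.0506%, 0.0605% and 0.143% by contrast, in the order given for Klf2). At an unadjusted p under 0.05 there were 17 of the 252, that is 4, 9 and 4 by contrast, beside 5.71% of tests over all genes (5.2%, 6.63% and 5.29%). None of the upstream, flow-induced, inflammatory or other Kruppel-like factor genes was called in endothelium or gCap in any of the 3 contrasts, and in endothelium 0.00891%, 0.16% and 0.0356% of all genes were. The lowest adjusted p was that of Klf7 in T cells, at 64.5, 53.4 and 66.1 CPM in p21Het and 30.2 and 45.2 CPM in p21mTertCD (log2 −0.64 ± 0.19, adjusted p = 0.18). Without p21mTertCD_2 it was −1.01 (adjusted p = 0.0077), and without p21mTertCD_1 −0.35 (adjusted p = 0.56), so its call rests on which of the 2 libraries stands for the group. A group of 1 library is assumed in such a fit to vary like the others. Without p21mTertCD_2, Klf9 in T cells was called as well (p21mTertCD minus p21Het, −0.80, adjusted p = 0.018), and so were Klf7 (0.69, adjusted p = 0.032), Klf9 (0.74, adjusted p = 0.020) and Klf10 (−0.71, adjusted p = 0.033) for p21mTert minus p21mTertCD. Klf4 in fibroblasts was 454, 467 and 655 CPM in p21Het and 305, 359, 476, 276 and 147 CPM in p21mTert (log2 −0.72 ± 0.28, adjusted p = 0.86), and was called with no filter on low counts (adjusted p = 0.0096). Klf7 in classical monocytes was also called with no filter, for p21mTert minus p21Het (−0.67, adjusted p = 0.013) and for p21mTertCD minus p21Het (−0.70, adjusted p = 0.049). In simulated gCap counts of this design, 63% of 2-fold and 92% of 4-fold changes were recovered for p21mTert against p21Het, and 5.5% of the calls were of unchanged genes. In the simulated aCap and gCap comparison that share was 10%, above the nominal rate. Counts were drawn with the spread typical of a gene's level and without a deposit difference. The contrasts with p21mTertCD were not simulated. These rates are thus not the recovery to be had for each of the 10 genes. No label says that each library is a separate mouse, so p-values measure at most the spread between libraries.

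The libraries also differed by deposit. WT_1, p21Het_1 and p21mTert_1 came from a first deposit and the other 8 from a later one, and the first deposit had more mitochondrial UMIs (medians of 6.30% to 6.58% against 2.82% to 4.28%). Age and deposit cannot be told apart for p21Het_1 and p21mTert_1. In all endothelium, Klf2 ran from 3195 to 3768 CPM in the 3 first-deposit libraries and from 1422 to 2709 CPM in the 8 later ones. Klf4 ran from 1837 to 2031 against 1176 to 1817 CPM, Klf6 from 493 to 580 against 305 to 442 CPM, and Klf13 from 266 to 299 against 313 to 370 CPM. The first deposit was thus higher in Klf2, Klf4 and Klf6 and lower in Klf13, and the ranges of these 4 of the 10 genes did not overlap, as was so for 17.7% of 8685 genes with a mean of at least 10 CPM. They are named for this, after their values were seen.

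A deposit term fitted over the 10 replicated libraries, a comparison added after the data were seen, called 6 of 84 tests of the 10 genes over the same 9 cell types, beside 1.27% of tests over all genes. Klf6 was higher in the first deposit in classical monocytes (log2 0.97 ± 0.13, adjusted p = 0.0014), T cells (0.64 ± 0.09, adjusted p = 0.026) and B cells (0.78 ± 0.18, adjusted p = 0.042), and Klf4 in B cells (0.79 ± 0.17, adjusted p = 0.035). Klf13 (−0.48 ± 0.11) and Thbd (−0.44 ± 0.10) were lower in all endothelium. None of the genes tested was called in gCap (lowest adjusted p = 0.070) or in aCap (0.24). All endothelium pools subtypes in a mix that differed by library, with summed aCap markers at 610 to 2138 CPM. The part of this mix in the 2 calls was not tested. Klf2 in endothelium was not called (0.37 ± 0.15, adjusted p = 0.21), but was with no filter on low counts (0.35, adjusted p = 0.024). In classical monocytes Klf6 ran from 291 to 368 CPM against 148 to 208 CPM. The calls rest on few libraries. None was left without p21mTert_1 and 1 without p21Het_1, each of which leaves the first deposit as 1 library in the fit, and 1 was left without p21mTert_2 or p21mTert_5 of the later deposit (2 or 3 without p21mTert_3, p21Het_2 or p21Het_3). The log2 fold change of Klf6 in classical monocytes was 0.94 without p21mTert_1 (adjusted p = 0.12), while in B cells it was 0.60 for Klf6 and 0.48 for Klf4. The other values without p21mTert_1 were 0.55 for Klf6 in T cells, and −0.51 for Klf13 and −0.45 for Thbd in endothelium. Immediate-early genes summed to 9870 to 11233 CPM in first-deposit classical monocytes against 4700 to 7846 CPM later. They summed to 5197 to 5950 against 3031 to 4656 CPM in T cells, also without overlap, and to 7469 to 8044 against 4001 to 7525 CPM in B cells, which overlapped narrowly. In all endothelium (14311 to 18638 against 9600 to 18220 CPM) and in gCap (10339 to 15992 against 5269 to 13345 CPM) the sums of the 2 deposits overlapped. Their part in the deposit differences was not tested.

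**Figure D5:**
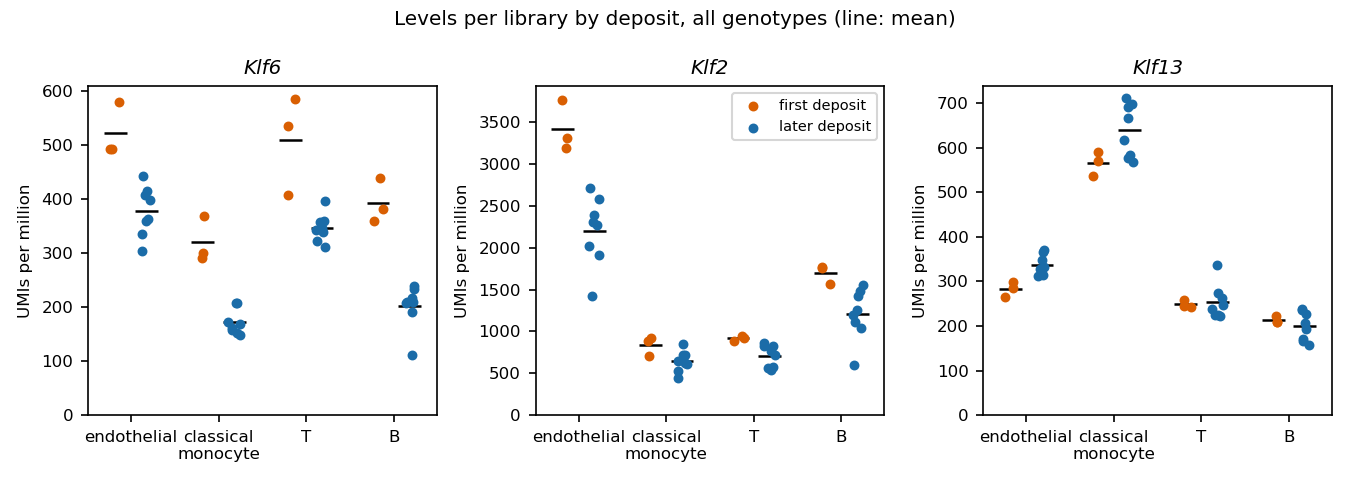
Level (CPM) of Klf6, Klf2 and Klf13 by deposit in all endothelium, classical monocytes, T and B cells, with 1 point per library (orange, first deposit; blue, later deposit) and lines at the means. In endothelium the 3 first-deposit libraries lie above the 8 later ones for Klf2 (3195 to 3768 against 1422 to 2709).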

How the data were processed

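Per the labels' protocols, lungs were digested with dispase and collagenase, libraries were made with the 10x single cell V2 kit, and Cell Ranger counted reads on the mm10 genome. The sources name different Cell Ranger versions, and none is given here. The deposited values are raw UMI counts per gene and barcode, 1 library per matrix, and not the filtered and scran-normalized values that the series' design text describes. The filter stated there (1000 to 30000 UMIs, at most 14% mitochondrial UMIs) was applied here.

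A cell took the type with the highest share of detected markers, with at least 3 markers and a lead of 0.2. Endothelial subtypes needed 2 subtype markers and the strictly highest share, and 9 genes of high free RNA counted from 10 UMIs. This scoring rule was set after the data were seen. No doublets were removed in the main values; Scrublet (scanpy 1.11.5) was an alternative. UMIs were summed per library and type where at least 20 cells were present, and CPM is UMIs per 1000000 summed UMIs.

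The quasi-likelihood test of edgeR 4.0.16 (R 4.3.3; 2-sided, TMM scaling, genes kept by filterByExpr) was run on these sums over all genes, with group as the term in 10 replicated libraries (WT has 1 and entered no genotype test) or, between types, with the library as a block. Benjamini-Hochberg adjustment ran over all genes of a fit, and an adjusted p under 0.05 is a call. SE is the log2 fold change divided by the root of F. The fit was checked on simulated data, where 1.7% to 10% of calls were of unchanged genes. DESeq2 1.42.0, other scalings, filters, gates and left-out libraries were alternatives; a minimum of 5 cells, shared barcodes left out and the comparison of deposits were added after seeing the data. Intervals and floors of 3 counts cover counting error only. Figures used matplotlib 3.10.9.

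The 10 genes and the gene lists were chosen with earlier results of these data known. From each list up to 4 called genes per direction could be named, by fold change, if the group with more of it averaged 10 CPM or more. Nos3 was too low to be tested by genotype in aCap, AT2, fibroblasts, alveolar macrophages, T and B cells. The values of 1 gene of the inflammatory list are not reported here.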

Additional observations from a re-analysis of the deposited data

Results flagged for a closer look

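Within the 5 p21mTert libraries, the highest or lowest library could stand apart from the other 4 (gap over range above 0.71). It did so in 7 of 90 gene and cell type pairs examined. This bound is passed by about 1 in 20 sets of independent, normally spread values. The pairs here share libraries and cells, and p21mTert_1 alone came from the first deposit. No share over all genes is given, so the 7 are not read as an excess over chance. Klf6 was highest in p21mTert_1, the first-deposit library, in classical monocytes (368 CPM, the others 157 to 208) and in B cells (439 CPM, the others 191 to 238). Nos3 in fibroblasts was also highest there, at 7.33 CPM on 3 UMIs, the others lying between 0 and 0.848 CPM. In p21mTert_5, Nos3 in all endothelium reached 65.3 CPM (the others 47.1 to 51.4) and Klf7 in fibroblasts 229 CPM (the others 119 to 149). Klf9 in fibroblasts was lowest in p21mTert_3, at 531 CPM (the others 650.2 to 683). Nos3 in T cells was highest in p21mTert_4, at 1.51 CPM on 12 UMIs (the others 0.328 to 0.526).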

How the results depend on the processing

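The number of calls of the 10 genes between vessel types and between lineages changed little: 6 to 8 in aCap, 6 to 7 in venous cells, 9 in lymphatic cells, 10 against epithelium, 10 against mesenchyme and 8 to 10 against immune cells over all alternatives run. Against immune cells, however, the Klf6 call was lost in 10 of 19 alternatives and the Klf13 call in 9 of 19. The exception in number was arterial-marker cells, with 5 calls at a minimum of 20 cells and 8 at a minimum of 5 cells, and no fit was possible there without p21mTert_3 or p21mTert_4. In the genotype contrasts, no filter on low counts gave 2 calls for p21mTert minus p21Het and 1 for p21mTertCD minus p21Het. Leaving out a library gave 0 to 3 calls for p21mTert minus p21mTertCD and 0 to 2 for p21mTertCD minus p21Het, with calls only where p21mTertCD_2 was left out, against 0 calls in each of the 3 contrasts with all libraries. The comparison of deposits gave 12 calls with DESeq2, 18 with no filter and 0 to 9 with a library left out, beside 6. The cause of these changes was not tested.

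No log2 fold change whose sign turned was called with all libraries and the main settings. For Klf7 in arterial-marker cells the values were −0.021 with no filter, −0.0017 without Scrublet-marked barcodes and −0.50 at 5 cells, where it was called. For Klf9 in arterial-marker cells the value was −0.054 at 5 cells, for Klf13 in venous cells −0.030 with no filter and −0.0031 at 5 cells (−0.016 to 0.053 with a library left out), and for Klf9 in lymphatic cells −0.038 with no filter. In gCap, p21mTert minus p21Het was 0.026 for Nos3 in the later deposit alone, and p21mTertCD minus p21Het was 0.0078 for Klf4 with a deposit term, and −0.040 for Thbd with that term and −0.077 in the later deposit alone. With a library left out, p21mTert minus p21Het in gCap ranged −0.041 to 0.26 for Klf2, −0.16 to 0.027 for Nos3 and −0.20 to 0.064 for Thbd, p21mTertCD minus p21Het −0.31 to 0.16 for Klf4 and −0.077 to 0.19 for Thbd, and p21mTert minus p21mTertCD −0.71 to 0.16 for Klf10 in T cells. Of 1888 alternative values for 99 single results, 1787 kept direction and side of the threshold.

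Replicate numbers gave no clear pairing of libraries: of 7 same-number pairs, deviations from group means correlated at −0.27 to 0.42, and 2 exceeded 0.1. Of 8 libraries, 3 correlated best with a library of their own number in another group. The highest same-number pair, p21Het_1 with p21mTert_1, also shares the first deposit. Deviations of the 2 p21mTertCD libraries mirror each other by construction, so this check cannot settle pairing for them. A replicate block left 0 calls in each genotype contrast and turned Thbd in gCap to 0.012 for p21mTert minus p21Het. Without the library block, calls were 6 in aCap, 7 in venous, 5 in arterial-marker and 9 in lymphatic cells, and 10, 10 and 8 against epithelium, mesenchyme and immune cells. Nos3 in aCap and lymphatic cells and the arterial-marker cells are limited by depth and cell number.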
